A study of Drosophila melanogaster with 18 samples.

Results

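RNA from whole Drosophila melanogaster embryos of 2 maternal Piwi knockdown lines, Piwi-MatKD_2 and Piwi-MatKD_1, was compared line against line. The comparison covers every gene and repeat element with at least 1 normalised read in at least 3 of the 6 libraries of these lines. That rule took in 10160 of the 17994 features of the RNA table, made up of 9958 of 17768 genes and 202 of 226 repeat elements. Of the 7834 features left out, 4349 were at 0 in all 6 libraries. The 494 features just inside the rule, with at least 1 read in exactly 3 libraries, had a median level of 1.53 normalised reads, and the 750 just outside it, with exactly 2, had 1.04.

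Piwi is an Argonaute protein of the germ line that binds piRNAs and silences the transposons they match. In the earliest fly embryo nearly all RNA and protein was put into the egg by the mother, and transcription from the embryo's own genome starts only in the course of the nuclear divisions. A hairpin RNA driven in the mother's germ line therefore changes what the embryo is given, and embryos of lines that carry different hairpins against 1 gene share the loss of that gene but need not share other changes.

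Mothers of Piwi-MatKD_2 embryos were THU/MAT-Gal4, those of Piwi-MatKD_1 were 37483/MAT-Gal4, and those of the control, GFP-MatKD, were 41550/MAT-Gal4; MAT-Gal4 is a driver active in the maternal germ line, which all 3 groups carry, and the fathers were w1118. The growth protocol describes the cross differently, with hairpin females and driver males, so the cross is uncertain. Eggs were collected over 1.5 h at 25 °C from cages of about 100 females, so each library pools embryos of that span. Each group had 3 RNA libraries, and nothing in the labels says that they came from separate cages, so p-values measure the spread between these libraries alone.

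The RNA values are normalised reads, that is, read counts divided by 1 factor per library. The columns could be matched to their group but not to a replicate, so libraries are named by their totals, and values are listed in this order throughout: for Piwi-MatKD_2 the libraries with 21.6, 8.5 and 73.0 M reads, for Piwi-MatKD_1 those with 61.2, 20.2 and 38.8 M, for GFP-MatKD those with 45.0, 16.5 and 32.9 M. Ribosomal RNA took 10.9%, 5.90% and 0.328% of the reads in the Piwi-MatKD_2 libraries, 0.182% to 0.245% in Piwi-MatKD_1 and 0.252% to 0.535% in GFP-MatKD, so the first pair of Piwi-MatKD_2 libraries stood apart from the rest. Over 7089 features with a mean of at least 100 normalised reads, the median SD of log2 values within a group was 0.32 in Piwi-MatKD_2, 0.21 in Piwi-MatKD_1 and 0.11 in GFP-MatKD. The transcript of piwi (FBgn0004872) stood at 646, 87.7 and 182 normalised reads in Piwi-MatKD_2 and at 256, 410 and 398 in Piwi-MatKD_1, against 7963, 9360 and 8921 in GFP-MatKD. The lines overlapped, and their log2 difference of -0.67 (SE 0.68) had an adjusted p of 0.964 in limma.

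In Piwi-MatKD_2, Rpn1, a scaffold subunit of the proteasome, fell to 4.51% of its Piwi-MatKD_1 mean, while 10 other proteasome subunits rose, by 1.02 to 1.41 on the log2 scale, and Rpt6R, a paralog of a proteasome ATPase, rose 189-fold. Besides these, the retrotransposon 412 and a set of genes that included Dic1, pst and Tep4 fell, and the hairpin RNA hpRNA:CR18854 rose with its neighbour IP3K1. Of the 10160 features tested with limma, 65 passed an adjusted p of 0.05, which is 0.64%: 44 were higher in Piwi-MatKD_2 (0.433%) and 21 were lower (0.207%). They comprised 62 genes, 60 of them protein-coding, and 3 repeat elements, and in all 65 the 3 libraries of one line lay outside those of the other. Over all features, the lines did not overlap in 15.5% (6.32% higher, 9.19% lower), and 1054 features (10.4%) had an unadjusted p under 0.05. The changes upward were mostly moderate, with a median log2 difference of 1.40 and 28 of 44 under 1.5, and those downward were larger, with a median of -2.23; the median of all features was -0.04.

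The number of calls changed with the libraries fitted. Each fit with 1 library left out also had fewer libraries from which to estimate the spread. With 1 library left out, 2, 4 and 6 features passed without the Piwi-MatKD_1 library with 61.2, 20.2 or 38.8 M reads, and 106, 7 and 32 without the Piwi-MatKD_2 library with 21.6, 8.5 or 73.0 M reads. Of the 65, 63 could be fitted in all 16 alternatives and kept their direction there; CG10750 and CG9702, which the minimum of 20 normalised reads removed, kept theirs in the other 15. Rpn1 and Rpt6R passed in all 16, DM412, Dic1 and Rpt3R in 14, and hpRNA:CR18854 and pst in 13; each of the other 58 passed in 11 or fewer. With the spread estimated from all 9 RNA libraries, 246 features passed (2.42%), of which 134 were higher (1.32%) and 112 lower (1.1%), and all 65 were among them. The part of the difference in ribosomal RNA content in these counts was not tested.

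**Figure D1:**
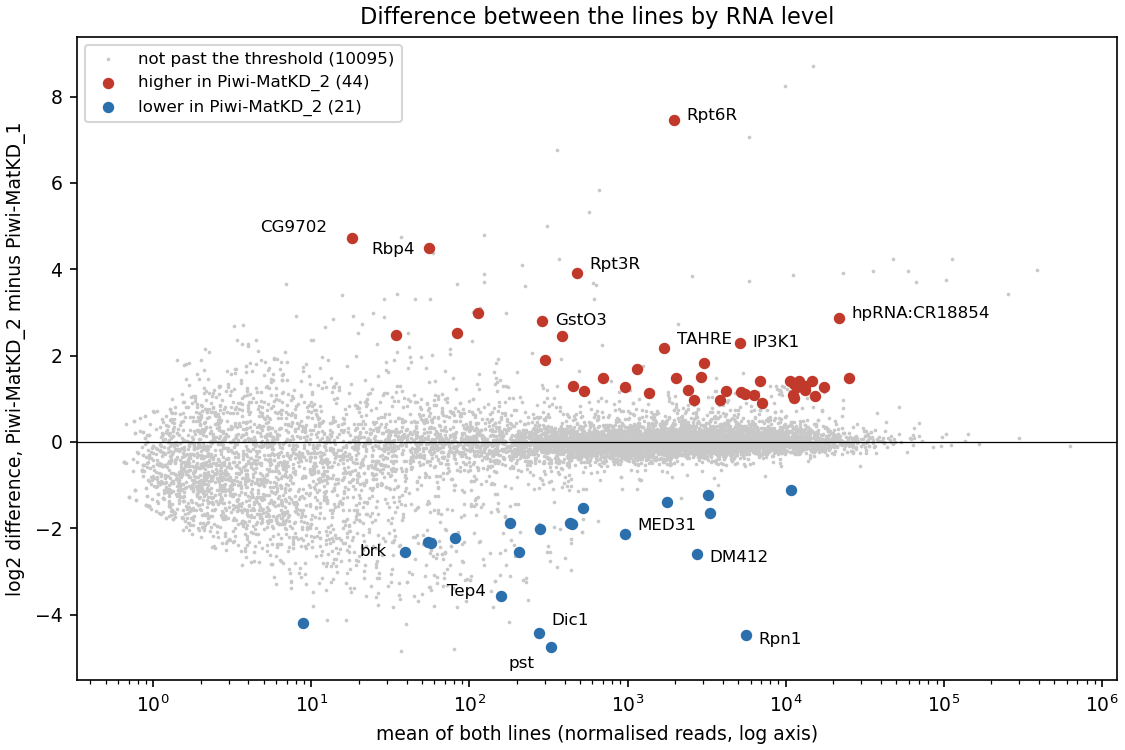
Log2 difference between the lines (vertical axis) against the mean normalised reads of both lines (horizontal log axis) for each of the 10160 features; red points are the 44 features higher in Piwi-MatKD_2, blue points the 21 lower, grey points those not past the threshold. Of the 15 features past the threshold at a mean of at least 10000 normalised reads 14 are higher and 1 is lower, with hpRNA:CR18854 at 2.88, while Rpn1, Dic1, pst and Tep4 stand well below 0 and Rpt6R is the highest of the features past the threshold.

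The proteasome is a barrel-shaped protease, the core particle, capped by a regulatory particle whose base unfolds substrates with a ring of ATPases and whose lid removes ubiquitin. Rpn1 (FBgn0028695, chromosome 3L, 19915051 to 19918160) sits in the base, where shuttle factors and the deubiquitinase Usp14 dock. Rpn1 stood at 417, 404 and 632 normalised reads in Piwi-MatKD_2, at 10669, 12628 and 8952 in Piwi-MatKD_1 and at 10947, 10526 and 12443 in GFP-MatKD. Every Piwi-MatKD_2 library was far below every other library, and Piwi-MatKD_1 overlapped the control. The log2 difference between the lines was -4.49 (SE 0.22, adjusted p 0.00116 in limma), and it ran from -4.69 to -4.07 over the 16 alternatives.

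The remaining subunits had differences of the other sign. Of the 33 subunits listed and tested, 10 rose and 1 fell, where 0.433% of all features rose and 0.207% fell, and 32 had a positive difference, with a median of 1.21 beside -0.04 for all features. The 32 subunits other than Rpn1 lay in a narrow range of differences, 0.89 to 1.44, across core, base and lid. In 27 of them all 3 Piwi-MatKD_2 libraries were above all 3 Piwi-MatKD_1 libraries, where 6.32% of all features showed this. With the spread of all 9 libraries 22 rose, where 1.32% of all features did. The Piwi-MatKD_2 library with 21.6 M reads was the lowest of its line for the median subunit, with 9083 normalised reads against 16366 and 16579 in the other two, and the Piwi-MatKD_1 medians were 6233, 7243 and 4740. The GFP-MatKD medians, 6118, 5720 and 5705, lay within the Piwi-MatKD_1 range.

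In the core particle, Prosbeta2, which carries a trypsin-like protease site, stood at 15466, 18567 and 19077 normalised reads in Piwi-MatKD_2 and at 6714, 6483 and 6710 in Piwi-MatKD_1, without overlap (log2 difference 1.41, SE 0.14, adjusted p 0.0136 in limma). Prosbeta4 rose by 1.41 and Prosalpha2, a subunit of the outer ring, by 1.02. Prosbeta5, the subunit with chymotrypsin-like activity, was at 13480, 19158 and 24844 in Piwi-MatKD_2 and 8822, 9442 and 7453 in Piwi-MatKD_1, also without overlap, but its adjusted p was 0.131. In the base, the ATPase Rpt5 stood at 17573, 16366 and 16016 in Piwi-MatKD_2 and at 7214, 6584 and 7020 in Piwi-MatKD_1 (1.26, SE 0.12, adjusted p 0.0136). The ATPase Rpt6 rose by 1.20 and the ubiquitin receptor Rpn10 by 1.33. In the lid, Rpn9 rose by 1.34, Rpn5 by 1.26, Sem1 by 1.17 and Rpn6 by 1.06, with adjusted p from 0.0308 to 0.0367.

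How many subunits passed varied far more than their direction. Without the Piwi-MatKD_2 library with 21.6 M reads 25 rose, without that with 73.0 M reads 3 rose, and without either that with 8.5 M reads or any 1 Piwi-MatKD_1 library none did, while Rpn1 fell in each case. Under library totals in place of the authors' factors 1 rose, under quantile normalisation 5, and in DESeq2 28. The median of the 33 stayed between 1.05 and 1.48 over all alternatives. In the 73.0 M library alone it was 1.48, and in the pair of libraries with high ribosomal RNA it was 1.06.

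**Figure D2:**
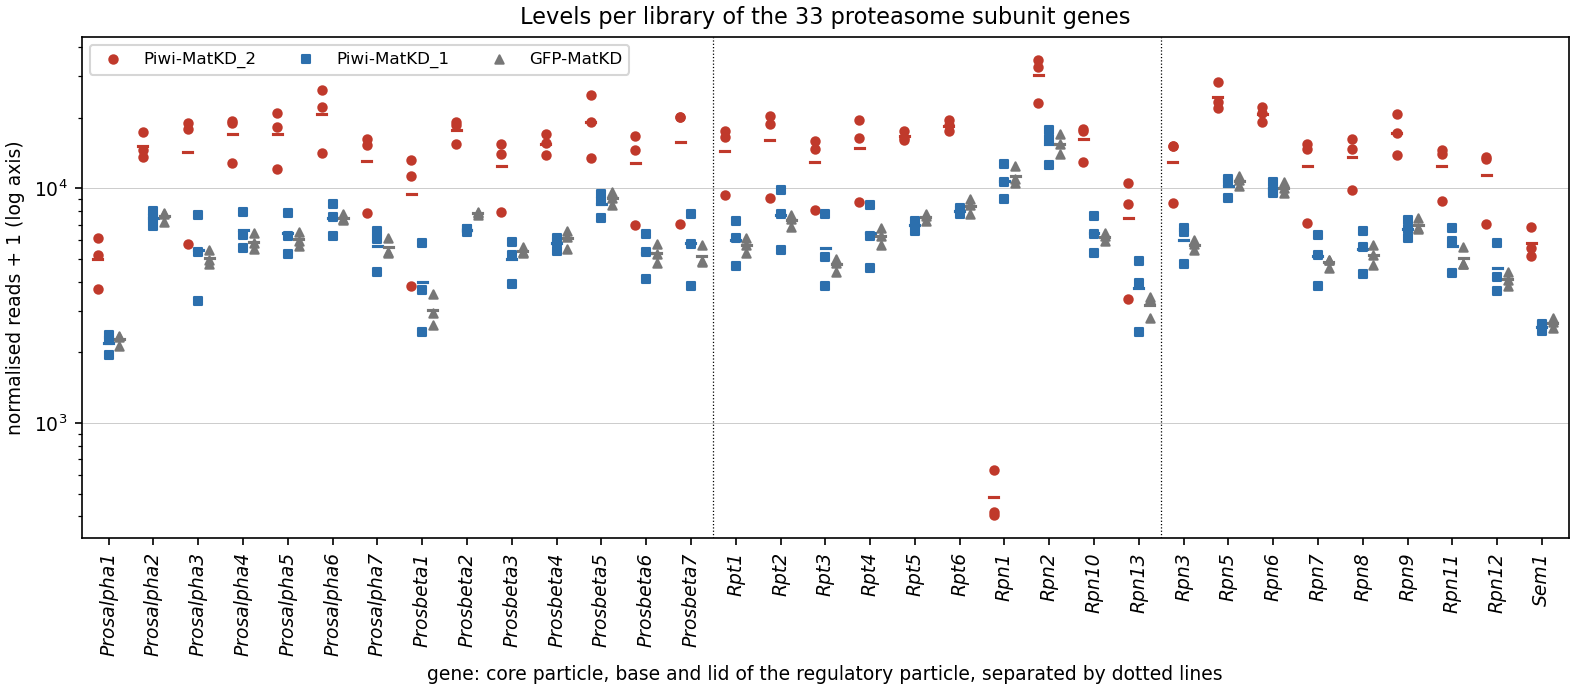
Normalised reads plus 1 (vertical log axis) of the 33 proteasome subunit genes in each RNA library, with points for libraries and short bars for group means; red circles are Piwi-MatKD_2, blue squares Piwi-MatKD_1 and grey triangles GFP-MatKD. Rpn1 alone lies below its Piwi-MatKD_1 and GFP-MatKD values in Piwi-MatKD_2, at 404 to 632 normalised reads, while the means of the other 32 are higher in Piwi-MatKD_2.

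Several subunits have paralogs that are known from the testis, and of 15 such genes listed 3 were tested; 7 of the others were at 0 in all 9 RNA libraries. Rpt6R (FBgn0039788), a paralog of Rpt6, stood at 4630, 2582 and 4555 normalised reads in Piwi-MatKD_2, at 22.7, 17.4 and 22.2 in Piwi-MatKD_1 and at 16.3, 17.0 and 3.47 in GFP-MatKD. It was near the bottom of the range in 6 libraries and abundant in 3 (log2 difference 7.45, SE 0.29, adjusted p 4.31e-04 in limma). Rpt3R, a paralog of Rpt3, stood at 1009, 648 and 1042 in Piwi-MatKD_2, at 57.3, 57.9 and 56.6 in Piwi-MatKD_1 and at 136, 153 and 102 in GFP-MatKD, a log2 difference of 3.92 (SE 0.26, adjusted p 0.00462). Prosalpha1R was higher without overlap, at 3701, 5209 and 6092 against 2237, 2337 and 1943 in Piwi-MatKD_1, but its difference of 1.18 did not pass (adjusted p 0.0753). The summed level of 16 listed genes of testis and sperm ran from 3.81 to 15.7 normalised reads in Piwi-MatKD_2, 17.2 to 18.7 in Piwi-MatKD_1 and 13.2 to 23.8 in GFP-MatKD, and 10 of them were at 0 in all 9 libraries.

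Rpt6R has a close neighbour that moved with it. CG9702 ends 80 bp from Rpt6R on chromosome 3R (30579429 to 30582117, and 30582198 to 30583697 for Rpt6R). It stood at 37.7, 15.3 and 54.2 normalised reads in Piwi-MatKD_2, at 0.889, 0 and 0 in Piwi-MatKD_1 and at 0, 0 and 0.868 in GFP-MatKD. Its fitted log2 difference was 4.72 (SE 0.60, adjusted p 0.0308 in limma), a value that depends on the pseudocount because the Piwi-MatKD_1 libraries held 2 reads or fewer. CG9702 met the minimum level of the comparison only through the Piwi-MatKD_2 libraries, so its adjusted p is no separate support for the difference. Whether reads of one gene were counted for the other was not tested.

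Some genes known to act with the proteasome, in autophagy or as chaperones were also among the 44 that rose; they were gathered from these calls and form no fixed list. ref(2)P, the fly relative of the p62 receptor that links ubiquitin-tagged proteins to autophagy, stood at 38789, 36500 and 35400 normalised reads in Piwi-MatKD_2 and at 12902, 12906 and 13852 in Piwi-MatKD_1. Its values barely varied within a line, and the log2 difference was 1.48 (SE 0.13, adjusted p 0.0136 in limma). Usp14, the deubiquitinase that docks on the proteasome, rose by 1.40. PSMG1, a chaperone of proteasome assembly, rose by 1.20, Ublcp1, a phosphatase that acts on the proteasome in human cells, by 0.98, and the ubiquitin ligase Ube3a by 0.89. The J-domain co-chaperone DnaJ-H rose by 1.41 and the lysosomal protease cathD by 1.29. Of the 18 listed genes of proteasome assembly, activators and ubiquitin, Usp14 alone passed, all 18 differences were positive, and the median was 0.27. Of these, the deubiquitinase Uch-L5 was higher without overlap, with a difference of 1.07 (adjusted p 0.112), and Ufd1, an adaptor of the segregase TER94, with 0.85 (adjusted p 0.0753).

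The list of 20 heat shock and chaperone genes also holds ref(2)P, the autophagy receptor described above. ref(2)P alone passed in limma, so none of the heat shock or chaperone genes listed did. The median difference of the 20 was 0.22. In 7 of the 20 Piwi-MatKD_2 was higher without overlap and in 1 lower, where 6.32% and 9.19% of all features were. In limma 6 higher and 1 lower had an unadjusted p under 0.05, where 10.4% of all features did in either direction. In DESeq2 5 passed, all higher, where 459 of all 10160 features passed. Hsp70Aa was higher in every Piwi-MatKD_2 library, at 477, 1670 and 1293 normalised reads against 288, 304 and 112 in Piwi-MatKD_1, with an adjusted p of 0.205 in limma. It has near-identical copies, so its own count is uncertain. The copies Hsp70Ab, Hsp70Ba and Hsp70Bb are in the same list, so the 20 are not all separate members. Of 12 genes of oxidative stress and glutathione none passed in limma or in edgeR; 3 had an unadjusted p under 0.05 and 3 passed in DESeq2. Their median was 0.04, and GstD2, a glutathione transferase, was higher without overlap (1.72, adjusted p 0.0810). Outside these lists, the glutathione transferase GstO3 rose by 2.80, the glutathione peroxidase Gtpx by 1.16, the thioredoxin-like Txl by 1.11 and the juvenile hormone epoxide hydrolase Jheh1 by 1.48. The transporter Mrp5, of the multidrug resistance family, rose by 1.70, and its neighbour CG4572, 1023 bp away on chromosome 3R, by 1.08.

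Hairpin RNAs are long inverted repeats that Dicer-2 cuts into small interfering RNAs. hpRNA:CR18854 (FBgn0285991, chromosome 2L, 9787294 to 9790745) stood at 50113, 32363 and 33038 normalised reads in Piwi-MatKD_2, at 5038, 4568 and 5874 in Piwi-MatKD_1 and at 3744, 3974 and 3898 in GFP-MatKD. The lines were far apart, and Piwi-MatKD_1 was itself above every control library (log2 difference between the lines 2.88, SE 0.21, adjusted p 0.00546 in limma). IP3K1 (9782384 to 9788499), a kinase of inositol trisphosphate, overlaps it by 1206 bp. It stood at 6397, 10059 and 9332 in Piwi-MatKD_2, at 1751, 1977 and 1450 in Piwi-MatKD_1 and at 1413, 1298 and 1479 in GFP-MatKD (2.30, SE 0.22, adjusted p 0.0136). The libraries were stranded per the labels, but counting by strand is not stated, so reads of the shared stretch cannot be assigned to one of them here. Of 12 listed hairpin and small interfering RNA genes tested, these 2 rose and none fell, where 0.433% of all features rose. The median was 0.23. Because the 2 genes overlap they are not separate members. hpRNA:CR18854 is a marker of this comparison, and the list was written with earlier results of these data known. The count of 2 therefore says nothing about hairpin genes as a group. hpRNA:CR46342 (0.78, adjusted p 0.110) and PolQ, DNA polymerase theta (1.20, adjusted p 0.0823), were higher without overlap, and the genes of the Dicers and their partners ranged from -0.19 to 0.30.

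The fallen genes had no common list. pst, known for resistance to viruses, stood at 39.2, 15.3 and 18.2 normalised reads in Piwi-MatKD_2 and at 557, 621 and 707 in Piwi-MatKD_1, a difference of -4.75 (SE 0.39, adjusted p 0.00882 in limma). Dic1, a mitochondrial dicarboxylate carrier, stood at 31.4, 15.3 and 26.3 against 501, 543 and 531, a difference of -4.44 (SE 0.32, adjusted p 0.00546). In both genes the lines were more than 10 times apart, and Piwi-MatKD_1 overlapped GFP-MatKD. Tep4, a thioester-containing protein of immune defence, stood at 28.2, 22.9 and 19.0 in Piwi-MatKD_2 and at 204, 317 and 356 in Piwi-MatKD_1 (-3.57, adjusted p 0.0136); the gene lies 2958 bp from ref(2)P, which rose.

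Genes with roles in transcription and chromatin were among them. MED31, a subunit of the Mediator complex, stood at 289, 366 and 425 normalised reads in Piwi-MatKD_2 and at 1489, 1631 and 1552 in Piwi-MatKD_1 (log2 difference -2.13, SE 0.19, adjusted p 0.0136 in limma). dre4, a subunit of the histone chaperone FACT, fell by 1.12 at a high level, with 6078, 7222 and 7166 against 15357, 15305 and 13699. Mef2, the muscle transcription factor, fell by 1.39, Dad, an inhibitor of Dpp signalling, by 1.90, and Smyd4-1, of the SET and MYND protein family, by 1.88. The cytochrome P450 Cyp6d4 fell by 2.56, Sema5c, a semaphorin, by 1.87, Tango10 by 1.23, Mrp4, of the same transporter family as Mrp5, by 2.32, CG33062 by 2.35 and CG13465 by 2.23. The long non-coding RNA lncRNA:CR42862 fell by 1.64. Zip48C, a zinc transporter, fell by 1.52; it lies inside MCPH1, which rose by 1.08, so their shared reads are uncertain. CG10750 was at 0 in the 3 Piwi-MatKD_2 and the 3 GFP-MatKD libraries and at 23.6, 15.9 and 13.6 in Piwi-MatKD_1. Against a floor of 3 reads per library it was at least 3.07-fold lower in Piwi-MatKD_2. CG10750 met the minimum level of the comparison only through the Piwi-MatKD_1 libraries, so its passing is no separate support for the difference.

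Other genes that rose had no common list. Rbp4, an RNA-binding protein, stood at 81.6, 83.9 and 155 normalised reads in Piwi-MatKD_2 and at 7.11, 5.79 and 0.717 in Piwi-MatKD_1 (log2 difference 4.50, SE 0.67, adjusted p 0.0464 in limma). ord, a meiotic cohesion factor, rose by 2.48, dany by 2.53, CG12493 by 2.99, Oxp by 1.91, CG12321 by 1.83, CG11885 by 1.27 and CG3842 by 1.13. msd1, a subunit of the augmin complex of the spindle, rose by 1.47 and the centriolar protein Cep164 by 1.29. Dscam4, an immunoglobulin-type surface protein, was at 646, 805 and 506 in Piwi-MatKD_2, at 142, 125 and 87.4 in Piwi-MatKD_1 and at 372, 317 and 323 in GFP-MatKD (2.46, SE 0.28, adjusted p 0.0229). Reck, a membrane-anchored protease inhibitor that overlaps Prosbeta2 by 82 bp, rose by 1.17.

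A second set of genes differed through Piwi-MatKD_1. Ctl2, a choline transporter-like protein, stood at 4636, 4530 and 3686 normalised reads in Piwi-MatKD_2 and at 1455, 1583 and 1468 in Piwi-MatKD_1, with 3963, 4044 and 3865 in GFP-MatKD. Piwi-MatKD_2 overlapped the control and Piwi-MatKD_1 was below it, and the difference between the lines was 1.51 (SE 0.14, adjusted p 0.0136 in limma). foxo, a transcription factor of insulin signalling, had the same order, with 3832, 3348 and 3268 in Piwi-MatKD_2, 1613, 1815 and 1880 in Piwi-MatKD_1 and 3145, 3282 and 3190 in GFP-MatKD (0.98, adjusted p 0.0410). These 2 genes and CG10750 were the 3 features where Piwi-MatKD_1 alone was apart from the control. In 44 of the 65 only Piwi-MatKD_2 was apart from it, in 7 both lines were on the same side and in 11 they were on opposite sides. The mean of Piwi-MatKD_1 was the closer to GFP-MatKD in 60 of 65. These counts cover the 65 alone. The shares over all features were not computed, so whether this lean is particular to the 65 was not tested.

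**Figure D3:**
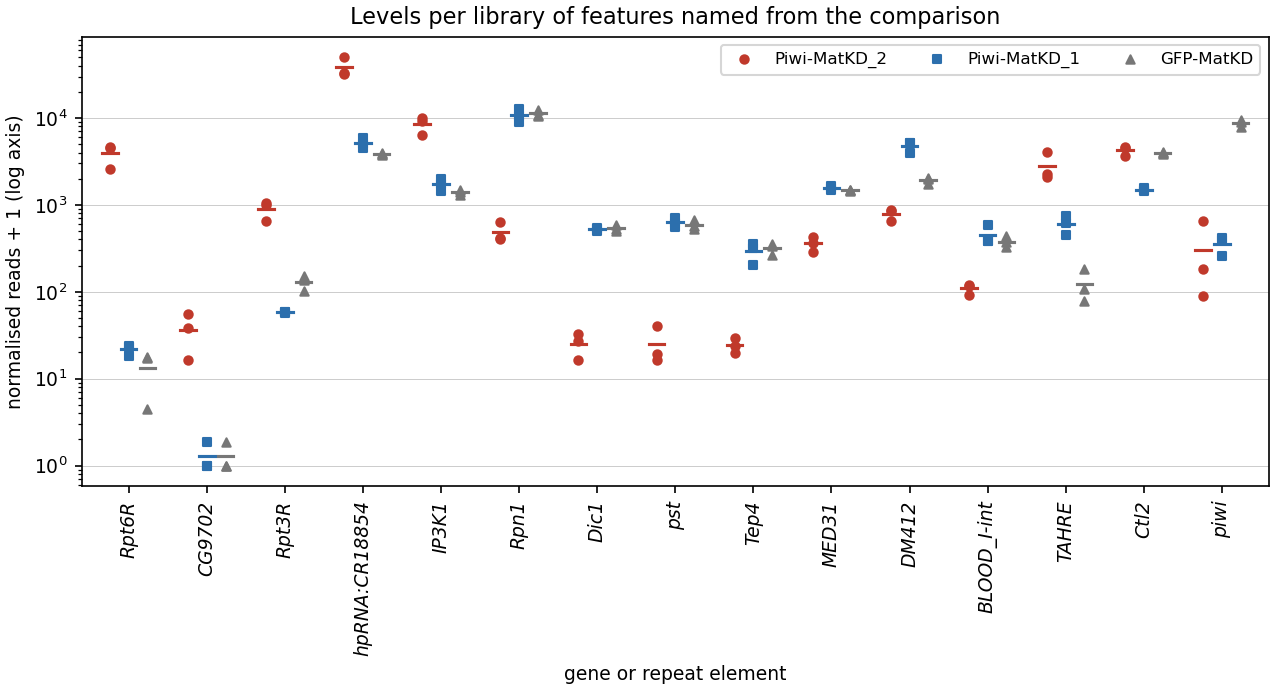
Normalised reads plus 1 (vertical log axis) per library for 14 features past the threshold between the lines and for piwi, with points for libraries and bars for group means; red circles are Piwi-MatKD_2, blue squares Piwi-MatKD_1 and grey triangles GFP-MatKD. In Ctl2 the Piwi-MatKD_1 libraries are the ones apart, at 1455 to 1583, and in DM412 the lines lie on opposite sides of the control.

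Transposons are the known targets of Piwi. Of the 202 repeat elements tested 1 rose and 2 fell, which is 1.49% beside 0.64% of all features. Without overlap between the lines, 24 elements were higher and 21 lower, where 6.32% of all features were higher and 9.19% lower. The median was 0.13 over 129 LTR elements, 0.19 over 37 LINE elements and 0.10 over 27 DNA elements. Over all 202 it was 0.15, with -0.11 without the Piwi-MatKD_2 library with 21.6 M reads and -0.21 with array quality weights, so no common direction held. Without 1 library at a time 0 to 6 elements passed: 0, 1 and 1 without Piwi-MatKD_1 libraries in the order above, and 6, 1 and 6 without Piwi-MatKD_2 ones. The 412 element, listed as DM412, is an LTR retrotransposon of the Gypsy family. It stood at 880, 644 and 839 normalised reads in Piwi-MatKD_2, at 5088, 4003 and 5096 in Piwi-MatKD_1 and at 1758, 2047 and 1998 in GFP-MatKD. The 3 groups did not overlap, with the control between the lines, and the log2 difference was -2.59 (SE 0.18, adjusted p 0.00546 in limma). Its long terminal repeat entry, DM412B_LTR, was at 147, 91.5 and 105 against 465, 290 and 562, a difference of -1.90 that did not pass (adjusted p 0.0751).

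BLOOD_I-int, the internal part of the Gypsy-family element blood, stood at 119, 91.5 and 115 normalised reads in Piwi-MatKD_2 and at 593, 384 and 384 in Piwi-MatKD_1 (log2 difference -2.03, SE 0.27, adjusted p 0.0329 in limma). Its terminal repeat, BLOOD_LTR, was lower without overlap at -0.93 (adjusted p 0.368). Of the 129 LTR elements, 18 were higher and 19 lower without overlap, where 6.32% and 9.19% of all features were. Among those lower that did not pass, chosen after their values were seen, the differences were -4.80 for Stalker2_LTR (adjusted p 0.124), -2.39 for TRANSPAC_LTR (0.0751), -1.30 for ROO_I-int (0.423) and -1.08 for Gypsy12_LTR (0.138). With the spread of all 9 libraries 6 elements fell, among them DM412B_LTR, TRANSPAC_LTR, Stalker2_LTR and Gypsy12_LTR.

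The fly telomere is kept by the LINE elements HeT-A, TAHRE and TART. TAHRE stood at 4026, 2280 and 2093 normalised reads in Piwi-MatKD_2, at 625, 449 and 735 in Piwi-MatKD_1 and at 77.9, 107 and 183 in GFP-MatKD. All 3 groups were apart, with both lines above the control (log2 difference between the lines 2.18, SE 0.30, adjusted p 0.0393 in limma). HETA stood at 5821, 3375 and 3113 in Piwi-MatKD_2 and at 5979, 3997 and 5713 in Piwi-MatKD_1, and these overlapped (-0.39, adjusted p 0.829). TART overlapped as well, with 1903, 1209 and 1133 against 1358, 1053 and 1233 (0.19, adjusted p 1).

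Other repeats followed the libraries rich in ribosomal RNA. R1_DM and R2_DM, which insert into the ribosomal RNA genes, stood at 410541, 182852 and 8081 and at 129520, 74533 and 3015 normalised reads in Piwi-MatKD_2, beside 5443 to 7056 and 1810 to 2136 in Piwi-MatKD_1. Their differences of 3.76 and 3.97 did not pass (adjusted p 0.366 and 0.317). Within Piwi-MatKD_2, the libraries split alike for Gypsy2_LTR, BATUMI_I-int and GTWIN_I-int. These elements stood at 916, 339 and 42.6, at 6009, 4759 and 569, and at 692, 206 and 46.4 normalised reads. This split does not show how the 73.0 M library compares with Piwi-MatKD_1. None of these elements passed. RNAs that mostly lack a poly(A) tail split alike: over 108 features of ribosomal, small nucleolar, small nuclear, 7SL, RNase P and RNase MRP RNA the median difference was 2.76 in the libraries of 21.6 and 8.5 M reads and -0.39 in that of 73.0 M. None of the 108 passed in limma or edgeR. In limma 23 had an unadjusted p under 0.05, all higher, where 10.4% of all features did in either direction. In DESeq2 32 passed, where 459 of all 10160 features did. 7SLRNA:CR42652, the RNA of the signal recognition particle and one of near-identical copies, stood at 9358, 79285 and 227 in Piwi-MatKD_2 and 82.7, 0 and 26.5 in Piwi-MatKD_1, and RNaseMRP:RNA at 1616, 2345 and 10.4 and at 5.33, 4.35 and 5.73.

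**Figure D4:**
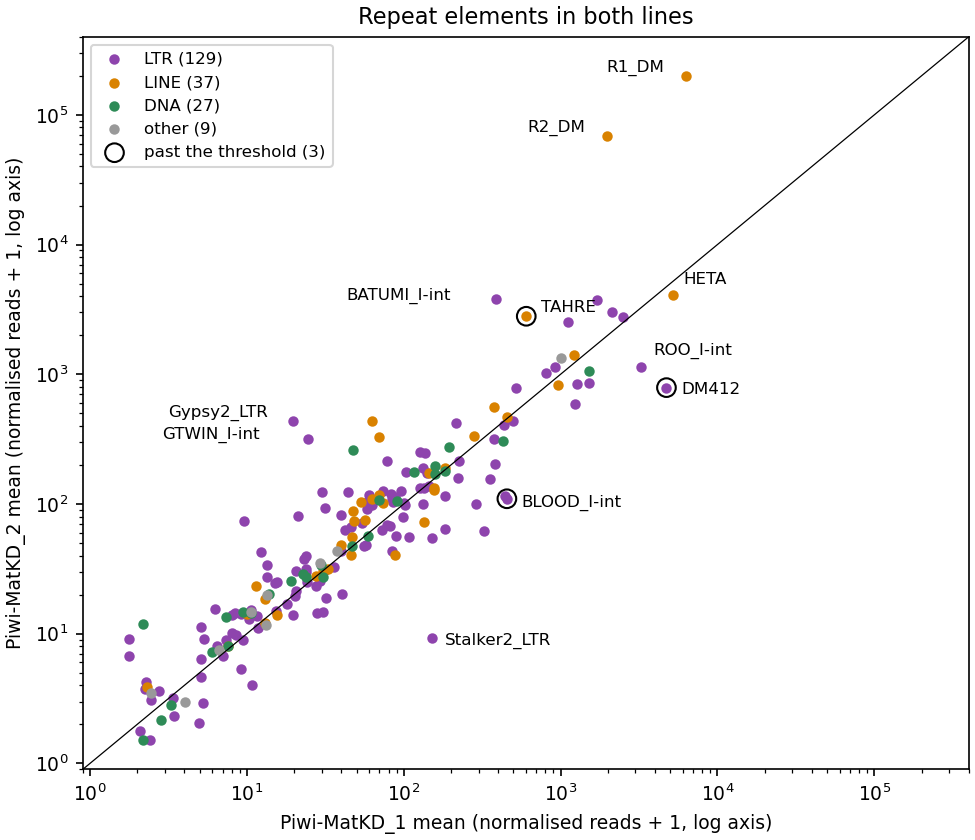
Mean normalised reads plus 1 of the 202 repeat elements in Piwi-MatKD_2 (vertical log axis) against Piwi-MatKD_1 (horizontal log axis), coloured by class, with the line of equality and circles around the 3 elements past the threshold. DM412 and BLOOD_I-int lie below the line and TAHRE above it; R1_DM and R2_DM lie far above it without passing, as 2 of 3 Piwi-MatKD_2 libraries carry their difference.

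Of 53 listed genes that the embryo itself first transcribes, 51 were tested, 49 had a negative difference, and the median was -2.33. Only brk, a repressor of Dpp target genes, passed in limma, and no gene of the list did under quantile normalisation or library totals. With the spread of all 9 libraries 9 fell, where 1.1% of all features did. An unadjusted p under 0.05 in limma was found for 35, beside 10.4% of all features. Without overlap 33 were below Piwi-MatKD_1, where 9.19% of all features were. brk stood at 7.85, 15.3 and 9.67 normalised reads in Piwi-MatKD_2, at 66.7, 81.1 and 55.2 in Piwi-MatKD_1 and at 131, 44.1 and 83.3 in GFP-MatKD (-2.56, SE 0.38, adjusted p 0.0479 in limma); it passed in 6 of 16 alternatives and in none with a library left out. Low genes as such leaned the same way but less: of 1290 features with a mean of 10 to 100 normalised reads, the median was -0.26 and 18.5% were lower without overlap, and the 31 zygotic genes in that range had a median of -2.56 with 25 lower without overlap. In pooled whole embryos, fewer embryos or nuclei that express a gene and less RNA from each cannot be told apart.

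The gap genes, which divide the body axis first, had a median of -2.42 over 8 genes, and Kr, a gap gene, stood at 6.28, 38.1 and 38.7 normalised reads in Piwi-MatKD_2 against 224, 262 and 247 in Piwi-MatKD_1 (log2 difference -3.45, adjusted p 0.101 in limma). In the same list hb (-0.17) and cad (0.34), both also supplied by the mother, overlapped between the lines. The pair-rule genes had a median of -2.33 over 9, with odd at -3.79 (adjusted p 0.0888), slp1 at -2.59 (0.205) and opa, which overlapped, at -0.14. The dorsoventral genes had -2.56 over 11, with tld at -1.50 and zen at -1.06, and those of cellularization had -2.19 over 6, with slam at -0.78 and Sry-alpha at -0.82. The early sex determination and neural genes had a median of -1.58 over 5, with dpn at -0.85 and Sxl, the switch of sex determination, at 0.08. The Bearded family and other early genes had -2.37 over 13, with term at -2.34 and Nin at -0.33. lncRNA:roX1, an RNA of X-chromosome dosage compensation named after its values were seen, stood at 36.1, 172 and 86.7 in Piwi-MatKD_2 and at 616, 585 and 650 in Piwi-MatKD_1 (-2.90, adjusted p 0.0804).

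The medians of the 51 zygotic genes were 6.28, 38.1 and 20.9 normalised reads in Piwi-MatKD_2, 79.1, 130 and 102 in Piwi-MatKD_1 and 175, 105 and 123 in GFP-MatKD, so every Piwi-MatKD_2 library was below the other 6. In the 73.0 M library alone the median difference was -1.90 and 50 of 51 were negative, and with any 1 library left out the median ran from -2.80 to -1.67. Markers of later embryos were uneven within Piwi-MatKD_1. Mhc, the muscle myosin heavy chain, stood at 1.57, 3.81 and 0.774 in Piwi-MatKD_2 and at 1.78, 382 and 0 in Piwi-MatKD_1. Act57B, a muscle actin, stood at 1.57, 15.3 and 8.90 in Piwi-MatKD_2 and at 14.2, 643 and 4.30 in Piwi-MatKD_1, so the Piwi-MatKD_1 library with 20.2 M reads stood apart. Without it the zygotic median was -2.02. Over 8 muscle and late embryo genes tested the median was -1.55 and Mef2 alone passed; over 7 blood cell genes it was -1.41 and over 5 of cuticle, gut and nerve -1.004, with none past the threshold in limma, edgeR or DESeq2 and 1 each at an unadjusted p under 0.05. Summed levels ran from 89.4 to 126 normalised reads in Piwi-MatKD_2, 156 to 536 in Piwi-MatKD_1 and 132 to 216 in GFP-MatKD for blood cells, and from 92.1 to 202, 112 to 488 and 154 to 185 for cuticle, gut and nerve. The part of embryo age in the zygotic differences was not tested.

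Median differences between the lines were small in the lists of maternal activators and clearance factors and of germ plasm and piRNA pathway genes. Of 17 maternal activators and clearance factors none passed in limma, edgeR or DESeq2 and none had an unadjusted p under 0.05, with a median of 0.03. Of 35 germ plasm and piRNA pathway genes none passed in limma or edgeR, 1 had an unadjusted p under 0.05 and 1 passed in DESeq2; the differences ran from -0.67, that of piwi, to 0.80 with a median of 0.06, which was -0.11 under library totals. Of the 20 listed ovary genes of chorion, vitelline membrane and yolk 3 were tested, and their summed level ran from 7.63 to 23.5 normalised reads in Piwi-MatKD_2, 9.34 to 14.3 in Piwi-MatKD_1 and 10.1 to 18.2 in GFP-MatKD. Of 8 histone genes tested, which include variant histones such as His2Av, none passed in limma, edgeR or DESeq2. None had an unadjusted p under 0.05 in limma, and the median was -0.02.

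**Figure D5:**
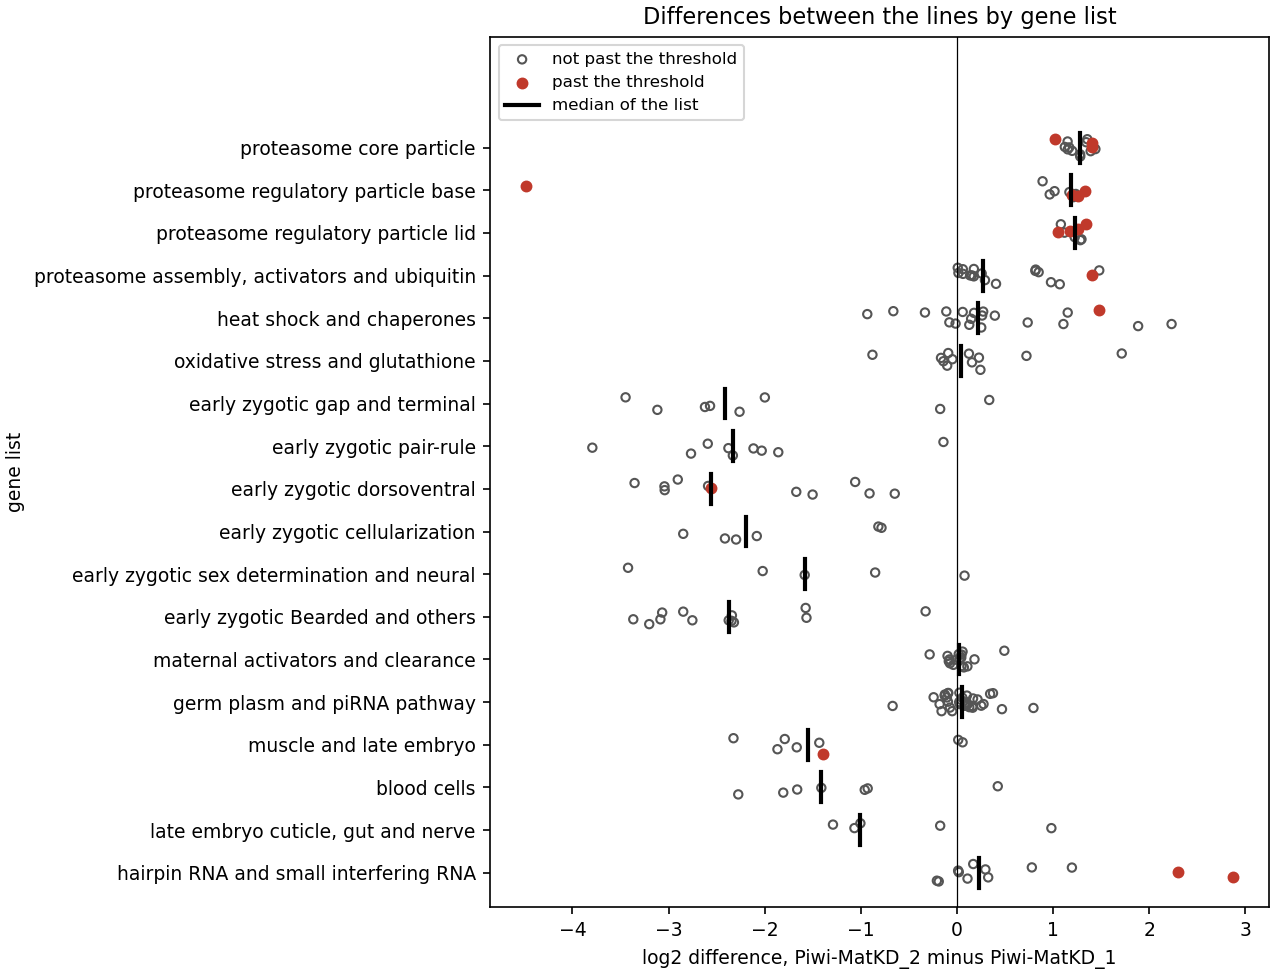
Log2 difference between the lines (horizontal axis) for the members tested in 18 of the 23 gene lists (vertical axis), with filled points for members past the threshold, open points for the rest and a bar for each list's median. The proteasome core, base and lid lie at 0.89 to 1.44 except Rpn1, the medians of the early zygotic lists lie between -2.56 and -1.58, and maternal and germ plasm lists lie near 0.

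Small RNA was measured in 9 other libraries of the same groups, with 1.88 to 3.38 M expected counts in Piwi-MatKD_2, 2.29 to 2.67 M in Piwi-MatKD_1 and 2.86 to 3.18 M in GFP-MatKD. Of 1693 features tested with edgeR, 87 differed between the lines (5.14%), 44 higher in Piwi-MatKD_2 (2.6%) and 43 lower (2.54%), and 405 (23.9%) had an unadjusted p under 0.05. Of the 62 genes whose RNA differed, 45 had 10 or fewer small RNA counts in each of the 6 libraries and 6 could be tested; none of the 6 passed in edgeR or DESeq2, and 1 had an unadjusted p under 0.05. hpRNA:CR18854 was at 144, 364 and 514 CPM (counts scaled to library size) in Piwi-MatKD_2 and at 121, 150 and 224 in Piwi-MatKD_1, with overlap (log2 difference 0.88, SE 0.46, adjusted p 0.276 in edgeR), and IP3K1 was at 0.90 (adjusted p 0.262). Rpn1 held 8 counts or fewer in each of these libraries. Small RNA at piwi was at 1002, 1183 and 1128 CPM in Piwi-MatKD_2 and at 382, 494 and 149 in Piwi-MatKD_1, apart but short of the threshold (1.52, SE 0.40, adjusted p 0.0750).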

How the data were processed

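The members and gene lists were chosen with earlier results of these data known. The deposited RNA values are a signal, reads the authors divided by a factor per library, and 100% of values above 0 came out whole within 0.01 when divided by what 1 read is worth, so whole reads were recovered. Per the submitters' processing notes, cutadapt, Bowtie 1.2.2, featureCounts and BDGP6 were used; multiple matches and strand are not given in the sources used here. Small RNA values were deposited by the authors in expected counts, rounded here. For RNA, limma 3.58.1 (eBayes, trended) was run on log2(value + 1) for the 6 libraries of both lines, since GFP-MatKD varied less, small RNA with edgeR 4.0.16 (quasi-likelihood, TMM, filterByExpr), with Benjamini-Hochberg adjusted p under 0.05; log2 differences of low genes are understated. DESeq2 1.42.0 was an alternative. Of 17768 gene IDs 17671 had a symbol; positions are RefSeq's (Release 6 plus ISO1 MT). Features were named by rule: the 3 markers Rpn1, DM412 and hpRNA:CR18854, piwi, the 12 highest and 12 lowest differences past the threshold with a mean of at least 50 normalised reads in the higher line, up to 6 members per list past the threshold, and the repeat elements past it. The rule also names the 2 members of highest level where fewer than 2 of a list passed. Of these, besides members that passed, only those of the early zygotic lists and HETA are described. Other features were chosen after their values were seen. Scripts were tested on simulated data. Intervals were not computed; depth limits low genes, as 1 read was worth 0.387 to 3.81 normalised reads.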

Additional observations from a re-analysis of the deposited data

Results flagged for a closer look

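In 11 features past the threshold between the lines, every Piwi-MatKD_2 library lay on one side of every GFP-MatKD library and every Piwi-MatKD_1 library on the other. All were chosen for a difference between the lines, which favours this pattern, and its share over all features was not computed. Piwi-MatKD_2 was below the control and Piwi-MatKD_1 above it for DM412 (log2 difference between the lines -2.59) and Mrp4 (-2.32). Piwi-MatKD_2 was above the control and Piwi-MatKD_1 below it for Ube3a (0.89), CG4572 (1.08), CG3842 (1.13), Reck (1.17), Rpt5 (1.26), Prosbeta2 (1.41), msd1 (1.47), Dscam4 (2.46) and Rpt3R (3.92). The distance of each line from GFP-MatKD was not tested here; the difference between the lines was, in limma.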

How the results depend on the processing

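Against 65 features, 3 repeat elements and 20 listed genes past the threshold in RNA, the counts were 246, 7 and 50 with all 9 libraries sharing 1 spread, 459, 19 and 75 in DESeq2, and 1744, 42 and 105 with array quality weights, whose estimation did not converge and gave 1 Piwi-MatKD_1 library a weight of 105. Library totals gave 28 features and 8 listed genes and moved the median of all features to -0.20. Without both Piwi-MatKD_2 libraries of high ribosomal RNA, chosen after seeing the data, 4, 0 and 2 passed; the lone library left is assumed to vary like the others. Leaving out 1 library gave 2 to 106 features, 0 to 6 repeat elements and 2 to 44 listed genes. A pseudocount of 8 (83 features), a minimum of 20 (67), no minimum (44), quantile normalisation (60) and edgeR (72) stayed within 1.5 times. Some small differences turned round. Sxl was at -0.0841 under library totals, -0.0961 with weights and -0.11 without both libraries, and TART at -0.20 with weights and -0.0927 without both. With 1 library left out, hb ran from -0.40 to 0.0310, opa from -0.33 to 0.0764, Sxl from -0.16 to 0.22, Mhc from -3.54 to 0.75 and TART from -0.0459 to 0.33. No paired RNA analysis was run. The RNA columns carry replicate numbers, but their names are also labels of small RNA samples, so the numbers were not tied to RNA samples. Small RNA, with 87 features, gave 198 with no minimum, 23 to 70 with 1 library left out and 281 with a replicate block. Deviations of same-numbered libraries of the lines correlated at 0.498, 0.0159 and 0.383. The highest correlations with a library of another number were -0.316, 0.00692 and 0.348. Each same-numbered value was the higher, by little for numbers 2 and 3. These values do not settle whether the numbers pair the samples, and the main small RNA test used no block. In limits, 1 read was worth 0.387 to 3.81 normalised reads, so differences of low genes rest on few reads, and libraries of unequal ribosomal RNA content make up Piwi-MatKD_2.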

Other observations

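The 62 genes past the threshold were spread over the chromosome arms, with 0.894% of the genes tested on 3L, 0.843% on 3R, 0.582% on 2L, 0.492% on 2R and 0.286% on X. Within 10000 bp of each other lay 7 pairs of them, made up of 14 genes. Of these pairs, 5 moved in the same direction and 3 overlapped. The rate of such pairs over all genes tested was not computed, so clustering was not tested. Prosbeta2 and Reck, Rpn5 and PSMG1 (1738 bp apart), CG4572 and Mrp5, CG9702 and Rpt6R, and IP3K1 and hpRNA:CR18854 rose together; ref(2)P rose beside Tep4, which fell, as MCPH1 did around Zip48C.

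mthl8, a gene of the methuselah-like receptor family chosen after its values were seen, stood at 224, 91.5 and 148 normalised reads of RNA in Piwi-MatKD_2 and at 23.1, 8.69 and 5.73 in Piwi-MatKD_1, apart but short of the threshold (log2 difference 3.65, adjusted p 0.0625 in limma). Its small RNA summed to 266 expected counts over the 3 Piwi-MatKD_2 libraries and 0.24 over the 3 Piwi-MatKD_1 libraries (adjusted p 0.00846 in edgeR).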
